A study of Fragaria vesca with 18 samples.

Results

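Fruit with brown achenes was compared with fruit with yellow achenes of the woodland strawberry Fragaria vesca, accession Hawaii4, in RNA from which polyadenylated transcripts had been removed. The comparison used all 6 poly(A)-depleted libraries labelled yellow or brown, of 18 libraries in the series, and all 61763 rows of the count table. Those rows comprised 28588 annotated genes and 33175 long non-coding RNAs (lncRNAs), sorted into 5 classes by the prefix of the row name. Both groups were labelled mature fruit and came from untreated greenhouse plants, with 3 biological replicates per stage. Each replicate pooled fruit of several plants, and RNA was extracted with TRIzol and sequenced as stranded pairs. The remaining libraries held poly(A)-depleted RNA of fruit with green achenes, labelled immature, and rRNA-depleted RNA of all 3 stages. The stage is the only contrast that the labels give between the groups.

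The strawberry fruit is a swollen receptacle that carries the true fruits, the achenes, on its surface, and achene colour is used to stage its development. Poly(A) depletion keeps transcripts without a poly(A) tail, among them many nascent, intronic and antisense RNAs, and also what remains of messenger RNA. An intergenic lncRNA lies between annotated genes. An exonic antisense lncRNA runs opposite to a gene and overlaps its exons, whereas intronic sense and intronic antisense lncRNAs lie within introns on the same or the opposite strand. In whole fruit, fewer cells of a type and less RNA per cell cannot be told apart. The gene identifiers carried no names, so no gene is given a role here and the stage of a library was not checked against named markers.

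The 3 yellow libraries held 9539287, 11332721 and 9488099 counts, and the 3 brown libraries 20433666, 11220682 and 12137259. The library labelled brown 3 stood apart from the other libraries of its label. Over the 48201 tested rows, Pearson's r of log2 CPM (counts scaled to the library's effective total, with 0.5 added) was 0.934 between brown libraries 1 and 2. Brown library 3 reached 0.678 with brown 1 and 0.763 with brown 2, but 0.874, 0.915 and 0.929 with the 3 yellow libraries. These are correlations across rows of shared annotation, given as a description. The order was the same in each of the 5 row classes. In intergenic lncRNAs, brown 3 correlated at 0.932 to 0.941 with yellow and at 0.806 to 0.823 with the other brown libraries, and in exonic antisense lncRNAs at 0.822 to 0.917 and 0.517 to 0.677. Results are therefore given with all 3 brown libraries and without brown 3.

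**Figure D1:**
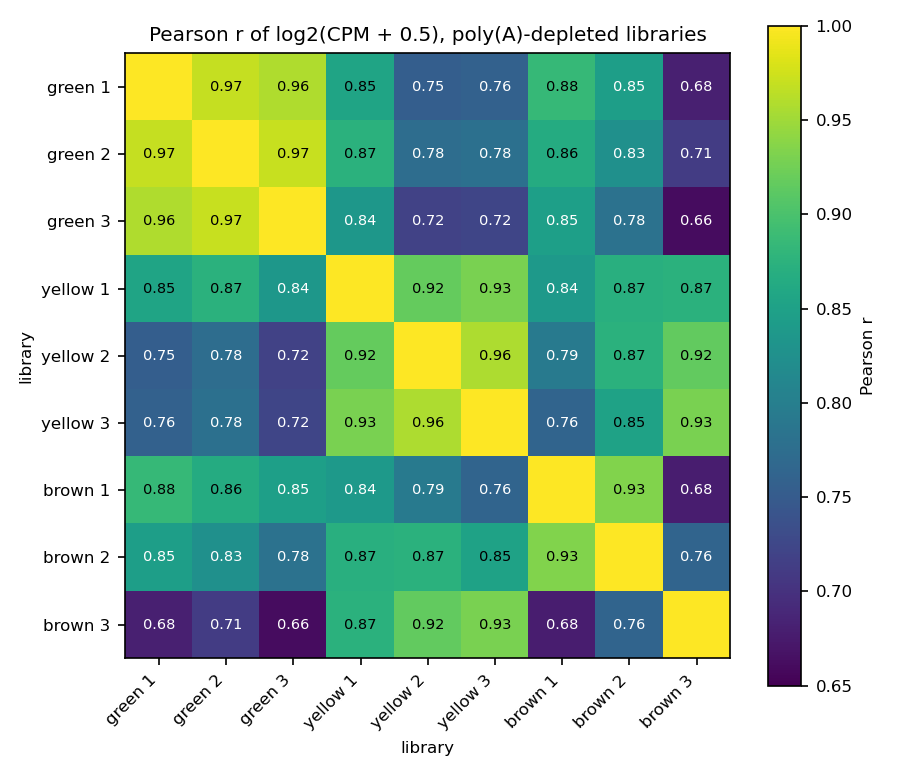
Pearson correlation of log2(CPM + 0.5) between the 9 poly(A)-depleted libraries over the tested rows, with colour and printed value giving r. Brown 3 has r of 0.87 or more with every yellow library and below 0.77 with brown 1 and brown 2.

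Intergenic lncRNAs took a smaller share of the counts in brown libraries 1 and 2 than in yellow fruit. Their share was 11.8%, 14.8% and 15.4% in the yellow libraries and 5.44%, 11.0% and 16.8% in brown libraries 1, 2 and 3. Brown 1 and brown 2 were below every yellow library, while brown 3 was the highest of the 6. The mean was 14.0% ± 1.94 (SD, n = 3) in yellow and 11.1% ± 5.66 (SD, n = 3) in brown, with an exact two-sided permutation p of 0.6. Without brown 3 the brown mean was 8.21% ± 3.92 (SD, n = 2), with an exact permutation p of 0.1, the smallest that the design allows, and 0.143 after Benjamini-Hochberg adjustment over the 10 shares tested.

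Exonic antisense lncRNAs moved the other way. They took 16.7%, 17.8% and 17.2% of the counts in yellow and 19.7%, 18.5% and 17.4% in brown. Brown 1 and brown 2 were above every yellow library, and brown 3 lay within the yellow range. The exact permutation p was 0.2 with all libraries and 0.1 without brown 3. The 74 genes whose identifiers begin with FvH4_c1, called contig 1 genes here, took 16.4%, 13.4% and 15.0% of the counts in yellow and 4.93%, 8.62% and 13.7% in brown. Again the first and second brown libraries were below all yellow libraries, and brown 3 was within their range. The exact permutation p was 0.2 with all 3 brown libraries and 0.1 without brown 3. Between libraries of the same replicate number, the exonic antisense share was higher and the contig 1 share lower in brown in all 3 pairs, while the intergenic share was lower in pairs 1 and 2 and higher in pair 3. None of the 10 shares could pass 0.05 in either set of libraries, since the smallest p that the exact permutation test allows is 0.1.

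**Figure D2:**
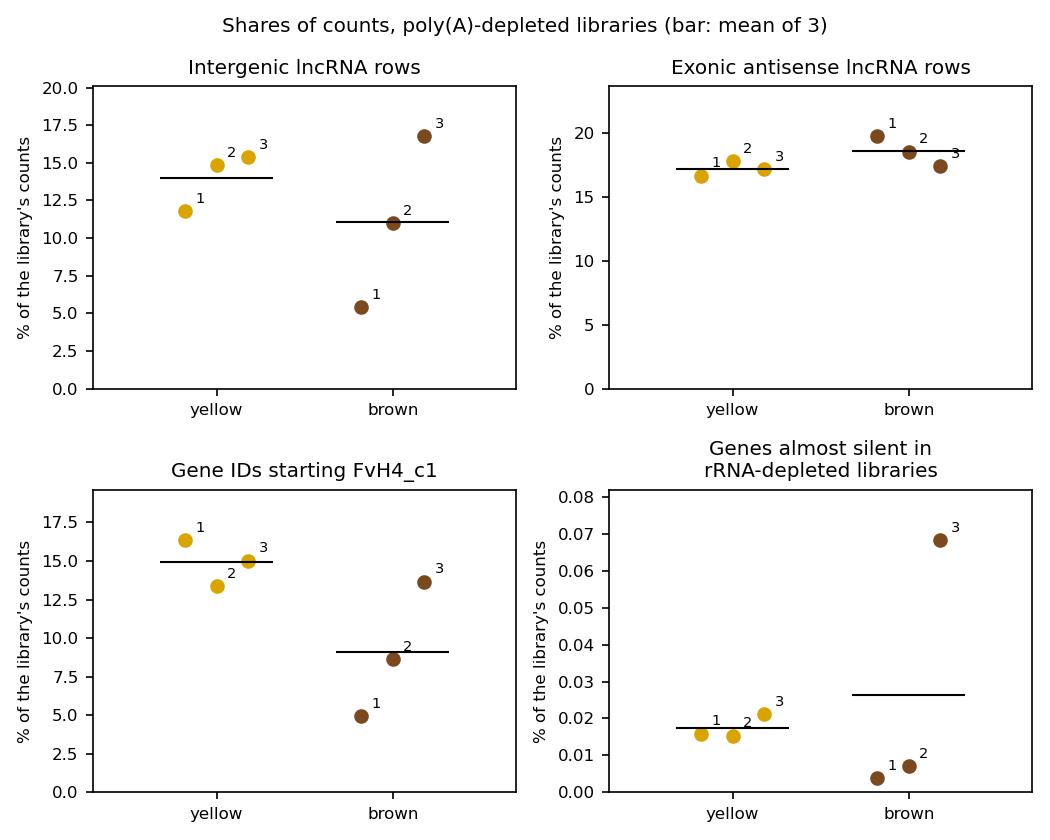
Share of each library's counts, in percent, for 4 groups of rows, with one numbered point per library and a bar at the mean of 3. In the intergenic, FvH4_c1 and almost silent panels brown 1 and brown 2 lie below every yellow library, and brown 3 lies at 16.8%, 13.7% and 0.0683%.

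A further measure moved with these shares. The 1885 genes that held at most 20 counts over all 9 rRNA-depleted libraries took 0.0159%, 0.0154% and 0.0212% of the poly(A)-depleted counts in yellow and 0.00383%, 0.00716% and 0.0683% in brown. Brown 1 and brown 2 were below, and brown 3 above, all yellow libraries. The 1000 most abundant rows took 30.1% to 36.5% of the counts in yellow and 46.6%, 36.6% and 26.5% in brown. The part of these measures in the row-level results below was not tested.

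With all 3 brown libraries, edgeR's quasi-likelihood test on the 9 poly(A)-depleted libraries called no row at an adjusted p under 0.05, in either direction (0% of 48201 tested rows). The smallest adjusted p by edgeR was 0.531. At an unadjusted p under 0.05, 3627 rows were higher and 809 lower in brown. DESeq2 called 52 rows, all higher in brown. The limma voom test with a quality weight for each library called 7171 higher and 8951 lower. It gave brown 3 and brown 1 the smallest weights of the 9 libraries, 0.166 and 0.250, against 0.794 to 3.49 for the other yellow and brown libraries.

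The 3 brown libraries lay above all 3 yellow libraries in 1396 rows (2.90%) and below them in 2148 rows (4.46%). Complete separation of 3 from 3 libraries has an exact two-sided permutation p of 0.1, so rows unrelated to stage can show it too. These counts are a description. Of 10131 tested intergenic lncRNAs, 124 (1.22%) were above and 641 (6.33%) below. Of 12178 exonic antisense lncRNAs, 353 (2.90%) were above and 558 (4.58%) below. Of 25204 annotated genes, 890 (3.53%) were above and 918 (3.64%) below. With library size as the only scaling, genes gave 741 above and 642 below, so their direction depended on the scaling. Intergenic rows stayed mostly below, with 37 (0.365%) above and 221 (2.18%) below, against 2.20% and 2.58% of all rows under that scaling.

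Without brown library 3, edgeR called 9255 rows higher (19.0% of 48756 tested) and 7011 lower (14.4%) in brown than in yellow. The row classes differed in their counts. Among 25379 tested genes, 5995 rose and 3192 fell. Exonic antisense lncRNAs had a similar make-up, with 3021 of 12270 higher and 1753 lower. The strand setting of the counting is not given, so whether these rows share counts with the genes opposite was not tested. Intergenic lncRNAs did not, with 166 of 10361 higher and 1972 lower, or 19.0% of the class lower and 1.60% higher. Intronic antisense lncRNAs gave 57 higher and 64 lower of 542, and intronic sense lncRNAs 16 higher and 30 lower of 204. The median log2 fold change was 0.06 over all rows, 0.19 in genes, 0.14 in exonic antisense and -0.24 in intergenic rows.

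The split between higher and lower rested on the scaling for genes and exonic antisense rows. With factors taken over annotated genes only, the median of all rows was -0.24, and genes split into 4288 higher and 4670 lower. With library size only, the median was -0.64, with 2142 genes higher and 6101 lower. Exonic antisense rows split into 2311 and 2478, and into 1185 and 3268, under the same scalings. Intergenic rows were mostly lower under each, with 114 higher and 2984 lower, and 46 higher and 3946 lower. Relative to the median of all rows, the intergenic median was -0.30, -0.30 and -0.29 under the main scaling and these alternatives, and the gene median was 0.13, 0.13 and 0.12. With the intergenic share of each library as a covariate, edgeR called 1112 genes higher and 1139 lower, and 106 intergenic rows higher and 324 lower. In that fit the intergenic median was 0.13, or -0.07 relative to the median of all rows, so its raw sign turned. That share is computed from the same counts, with the intergenic rows as its numerator. A smaller intergenic shift in that fit was therefore largely set in advance, and nothing is concluded from it. Leaving out brown 1 as well, so that brown 2 stood alone and was assumed to vary like the libraries of the other stages, left 1454 genes higher and 2036 lower, and 805 lncRNAs higher and 2279 lower, against 3260 and 3819 with both. Without yellow 3, 3881 genes were higher.

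**Figure D3:**
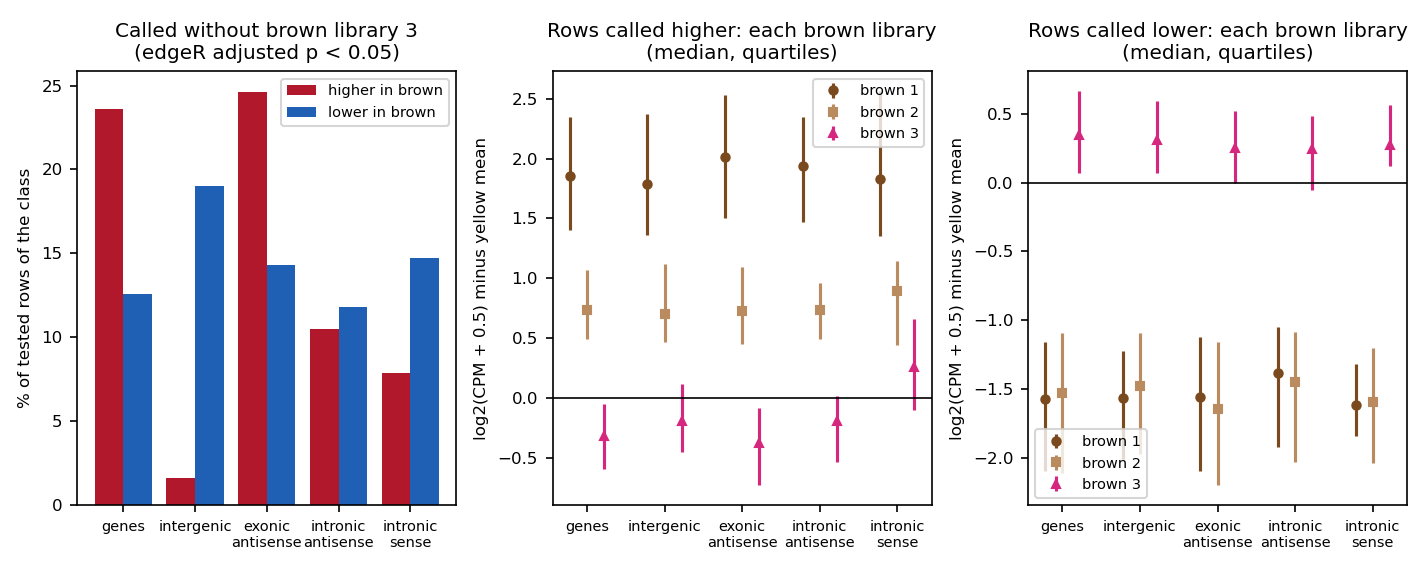
Left, percent of the tested rows of each class called higher (red) or lower (blue) in brown without brown library 3. Middle and right, median and quartiles of each brown library's log2(CPM + 0.5) minus the yellow mean in the rows called higher and lower, where brown 3 lies near or beyond 0 on the opposite side in every class except the intronic sense rises.

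Brown library 3 had no part in those calls, and its levels in the called rows are given beside those of the other brown libraries, which share the yellow libraries with them. In the 9255 rows called higher, the median difference from the yellow mean on the log2 scale was 1.90 in brown 1, 0.73 in brown 2 and -0.33 in brown 3. In the 7011 rows called lower it was -1.57, -1.55 and 0.31. The rises were thus larger in brown 1 than in brown 2, the falls were of like size in both, and brown 3 lay on the other side of the yellow mean at the median. In the lower intergenic rows the medians were -1.57, -1.48 and 0.31. The 16 intronic sense rows called higher were the exception, with medians of 1.83, 0.90 and 0.26. The green poly(A)-depleted libraries lay at 1.19, 1.09 and 1.31 in the higher rows and at -0.92, -0.51 and -0.55 in the lower rows. They too are set against the yellow libraries that chose the rows, so their side is no independent result.

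The direction of the calls went with the level of a row in the rRNA-depleted libraries, which the test did not use. Of 1372 genes at 100 CPM or more there, 76.8% were called higher and 0.364% lower without brown 3. Between 10 and 100 CPM, 54.1% of 8008 genes were higher. Under 1 CPM, 36.6% of 5214 genes were lower and 0.537% higher. Rows were tested only if they passed a count filter on the poly(A)-depleted libraries. A row almost absent from rRNA-depleted RNA thus entered through the poly(A)-depleted stages where it was high. Of the 1885 almost silent genes, 50 were tested, with 24 lower and 0 higher. The filter therefore sets part of the low end of the gradient, and how much was not tested. Intergenic rows showed the same gradient, from 32.1% lower and 0.181% higher under 1 CPM to 48.6% higher and none lower among the 173 rows between 10 and 100 CPM. In exonic antisense rows, 41.3% were lower under 1 CPM and 81.6% were higher at 100 CPM or more. Most tested intergenic rows, 5532 of 10361, were under 1 CPM in the rRNA-depleted libraries, against 5214 of 25379 genes.

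Brown library 3 had the opposite gradient. It was below all 3 yellow libraries in 78.2% of genes at 100 CPM or more and in 13.1% of those under 1 CPM, and above all 3 in 0.729% and 52.7%. The intergenic rows under 1 CPM gave 45.6% above and 13.7% below. The share of the counts taken by almost silent genes, given above, moved in the same way in these libraries, and its part in the gradient was not tested.

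**Figure D4:**
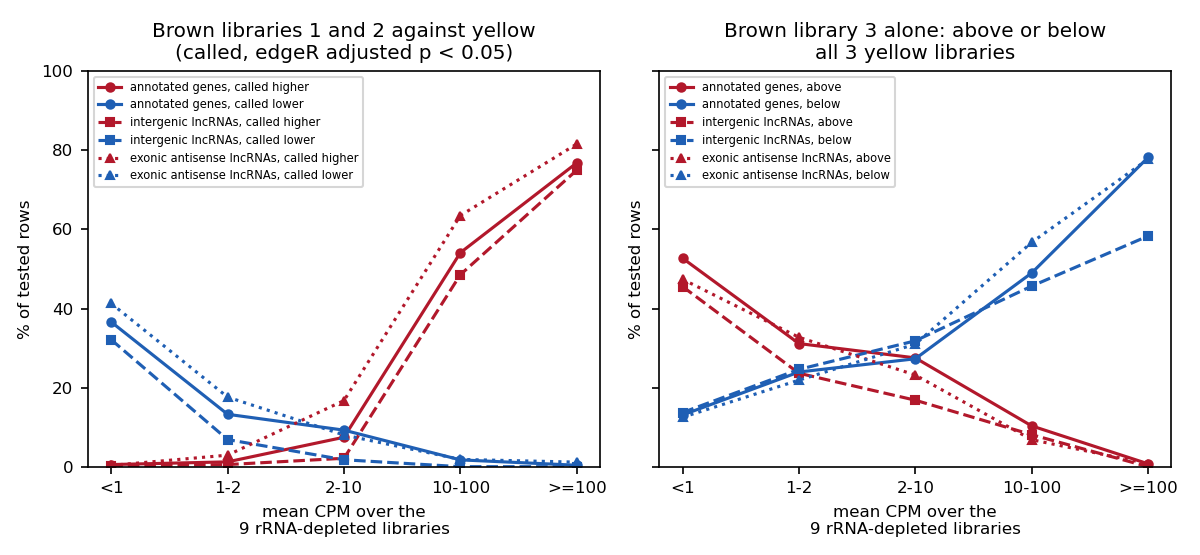
Percent of tested rows against the mean CPM over the 9 rRNA-depleted libraries, for genes (solid), intergenic (dashed) and exonic antisense lncRNAs (dotted). Left, rows called higher (red) or lower (blue) without brown 3, with 76.8% of the most abundant genes higher; right, rows where brown 3 alone was above (red) or below (blue) all yellow libraries, with 78.2% of those genes below.

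In annotated genes, the rises and falls named are the largest among called genes with at least 10 CPM in the higher group and no overlap, taken without brown 3 because no gene passed with it. FvH4_3g36410 had 27.9, 50.8 and 37.5 CPM in yellow and 2278, 177 and 24.5 CPM in brown. Brown 1 and brown 2 were above every yellow library, far apart from each other, and brown 3 was below all of them. Its log2 fold change without brown 3 was 4.95 ± 0.79 (SE), with an edgeR adjusted p of 0.000673, and 2.19 when brown 1 was left out as well. With all libraries it was 4.42 ± 1.35 (SE), with an edgeR adjusted p of 0.531. FvH4_6g43800 had 0.0936, 1.88 and 0.155 CPM in yellow and 23.8, 13.8 and 0.617 CPM in brown. Its libraries brown 1 and brown 2 were above all yellow libraries, and brown 3 within their range. The log2 fold change was 4.64 ± 0.68 (SE; edgeR adjusted p = 0.000488), and 7.14 without yellow 2, the yellow library with most counts.

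FvH4_c1g00140, one of the contig 1 genes, had 623, 378 and 451 CPM in yellow and 9.36, 6.54 and 454 CPM in brown. The level in brown 1 and 2 was far below every yellow library, and brown 3 lay among them. The log2 fold change was -5.88 ± 0.73 (SE; edgeR adjusted p = 0.000279) without brown 3 and -1.63 ± 1.34 (SE; edgeR adjusted p = 0.668) with it. FvH4_5g03160 had 11.5, 12.3 and 9.78 CPM in yellow and 0.343, 0.0860 and 17.2 CPM in brown. Brown 3 was the highest of the 6 libraries and the other brown libraries the lowest. The log2 fold change without brown 3 was -5.59 ± 0.52 (SE; edgeR adjusted p = 0.000110), against -0.89 ± 1.10 (SE; edgeR adjusted p = 0.786) with it, and -6.87 without brown 1 and brown 3.

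The contig 1 genes as a group were less uniform than FvH4_c1g00140. Of 73 tested, 11 were lower and none higher without brown 3, or 15.1% against 14.4% of all rows lower, and their median log2 fold change was -0.46. The 65 tested genes of other contigs gave 6 higher and 6 lower, with a median of 0.15.

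Among intergenic lncRNAs, LINC.XLOC_026606 lies on chromosome 6 at 4229440 to 4230125, on the minus strand in a single exon, in the coordinates of the deposited annotation, whose build is not given in the sources used here. It had 1.03, 0.767 and 0.698 CPM in yellow and 23.4, 3.36 and 3.76 CPM in brown. All 3 brown libraries were above all 3 yellow libraries, brown 3 included. The log2 fold change was 4.0 ± 0.56 (SE; edgeR adjusted p = 0.000397) without brown 3 and 3.60 ± 0.76 (SE; edgeR adjusted p = 0.531) with it, and 2.02 without brown 1 and brown 3. Its green libraries held 20.9, 17.2 and 17.1 CPM, so yellow was the lowest stage. LINC.XLOC_028643, on chromosome 6 at 30318009 to 30318595, had 0, 0.349 and 0.233 CPM in yellow and 5.49, 2.58 and 0.224 CPM in brown. Brown 3 was within the yellow range. Its log2 fold change without brown 3 was 4.26 ± 0.80 (SE; edgeR adjusted p = 0.00149), resting on 8 counts over the yellow libraries, and it was 3.59 without brown 1 as well and 4.94 without yellow 2.

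The intergenic falls were rows that dropped to no counts in brown 1 and brown 2. LINC.XLOC_030433, on chromosome 7 at 14371021 to 14371712, had 4.49, 4.88 and 3.73 CPM in yellow and 0, 0 and 4.65 CPM in brown. Brown 3 lay within the yellow range. Against a floor of 3 counts over the brown 1 and 2 libraries, the level was at least 34.0-fold lower than in yellow (edgeR adjusted p = 0.000250 without brown 3, and 0.689 with it). LINC.XLOC_019458, on chromosome 5 at 10992084 to 10993126, had 4.02, 3.91 and 4.42 CPM in yellow and 0, 0 and 6.56 CPM in brown, at least 31.9-fold lower by the same floor (edgeR adjusted p = 0.000729). Brown 3 was above all yellow libraries. Floors and counting intervals cover counting error only.

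The lower intergenic rows were spread over the genome. Between 18.1% and 20.8% of the tested intergenic rows were lower on each of the 7 chromosomes. Rows with a single exon were lower in 1924 of 9890 cases (19.5%) and higher in 146 (1.48%). Spliced rows were lower in 48 of 471 (10.2%) and higher in 20 (4.25%). The lower rows had a median exonic length of 1260.5 bases, against 1608 in rows not called and 1508.5 in higher rows. The lower rows also had less signal in the yellow libraries, with a median of 4.50 CPM against 8.07 CPM in rows not called.

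Exonic antisense lncRNAs included a row that followed the leading gene. The row exonAS.XLOC_010029, on chromosome 3 at 31207812 to 31209073 on the plus strand, had 20.8, 41.4 and 29.1 CPM in yellow and 1984, 152 and 16.1 CPM in brown. Brown 1 and 2 were above all yellow libraries and brown 3 below them. Its log2 fold change without brown 3 was 5.10 ± 0.78 (SE; edgeR adjusted p = 0.000593), and 2.32 without brown 1 as well. Its counts were 0.382 to 0.871 times those of FvH4_3g36410 in all 18 libraries, a pair chosen after the values were seen. Whether the counting used strand is not given in the sources used here. If it did not, the counts of a gene and of the row opposite to it cannot be told apart. Of 10565 exonic antisense rows with at least 50 counts on average, 375 (3.55%) matched a gene of the same chromosome within 10% in every library.

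The other rise named in the class, exonAS.XLOC_002136 on chromosome 1 at 4909062 to 4909381, had 0.281, 0.140 and 0.0776 CPM in yellow and 11.7, 1.98 and 0 CPM in brown. Brown 3 had no counts while the other brown libraries were above all yellow ones. The log2 fold change was 5.33 ± 0.73 (SE; edgeR adjusted p = 0.000378) without brown 3, and 3.55 without brown 1 as well. The falls exonAS.XLOC_016432 (chromosome 4, 5120302 to 5121233) and exonAS.XLOC_026172 (chromosome 6, 38092125 to 38093266) had no counts in brown 1 and brown 2. The former had 4.68, 3.98 and 3.49 CPM in yellow and 4.15 CPM in brown 3, and the latter 4.31, 4.05 and 2.72 CPM in yellow and 5.89 CPM in brown 3. They were at least 31.1-fold and 28.4-fold lower in brown 1 and 2 than in yellow, with edgeR adjusted p of 0.000370 and 0.000575.

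Of the intronic rows, intronAS.XLOC_011281 (chromosome 3, 9277535 to 9278141) had 0.936, 0.977 and 0.466 CPM in yellow and 29.6, 3.36 and 4.48 CPM in brown. All 3 brown libraries were above all 3 yellow libraries. The log2 fold change was 4.35 ± 0.66 (SE; edgeR adjusted p = 0.000547) without brown 3, 3.95 ± 0.87 (SE; edgeR adjusted p = 0.531) with it, and 2.07 without brown 1 and brown 3. The row intronAS.XLOC_031116 (chromosome 7, 23835974 to 23836493) had 0.842, 0.837 and 0.854 CPM in yellow and 10.2, 3.53 and 1.18 CPM in brown, with no overlap (log2 fold change 3.03 ± 0.48, SE, edgeR adjusted p = 0.000647 without brown 3, and 2.05 without brown 1 as well). INTRONIC.XLOC_029336 (chromosome 6, 39381413 to 39382223) had 1.12, 3.28 and 2.33 CPM in yellow and 60.5, 13.5 and 2.63 CPM in brown, where only brown 3 was within the yellow range (4.01 ± 0.52, SE, edgeR adjusted p = 0.000312 without it, and 2.56 without brown 1 as well). INTRONIC.XLOC_008090 (chromosome 3, 4439614 to 4439848) had 0.468, 0.349 and 0.155 CPM in yellow and 5.24, 1.55 and 1.46 CPM in brown, with no overlap. Its log2 fold change of 3.39 ± 0.63 (SE; edgeR adjusted p = 0.00138) was not called once brown 1 was also left out (edgeR adjusted p = 0.0662).

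The intronic falls had 1 to 3 counts over brown 1 and brown 2. INTRONIC.XLOC_027847 had 3.56, 2.16 and 3.65 CPM in yellow and 0.0858, 0 and 3.48 CPM in brown, a pooled ratio of yellow to brown 1 and 2 of 71.2 (95% exact counting interval 12.5 to 2837). INTRONIC.XLOC_010016 had 3.18, 3.35 and 2.56 CPM in yellow and 0.0858, 0 and 5.16 CPM in brown, a ratio of 70.6 (12.4 to 2813). Brown 3 lay within or above the yellow libraries in both rows. For intronAS.XLOC_032736 and intronAS.XLOC_032562 the ratios were 29.8 (8.02 to 249) and 20.7 (6.87 to 102), with 5.44 and 3.03 CPM in brown 3, above every yellow library. Their edgeR adjusted p values without brown 3 were 0.00172 and 0.00781, and the latter was 0.0972 once brown 1 was left out.

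**Figure D5:**
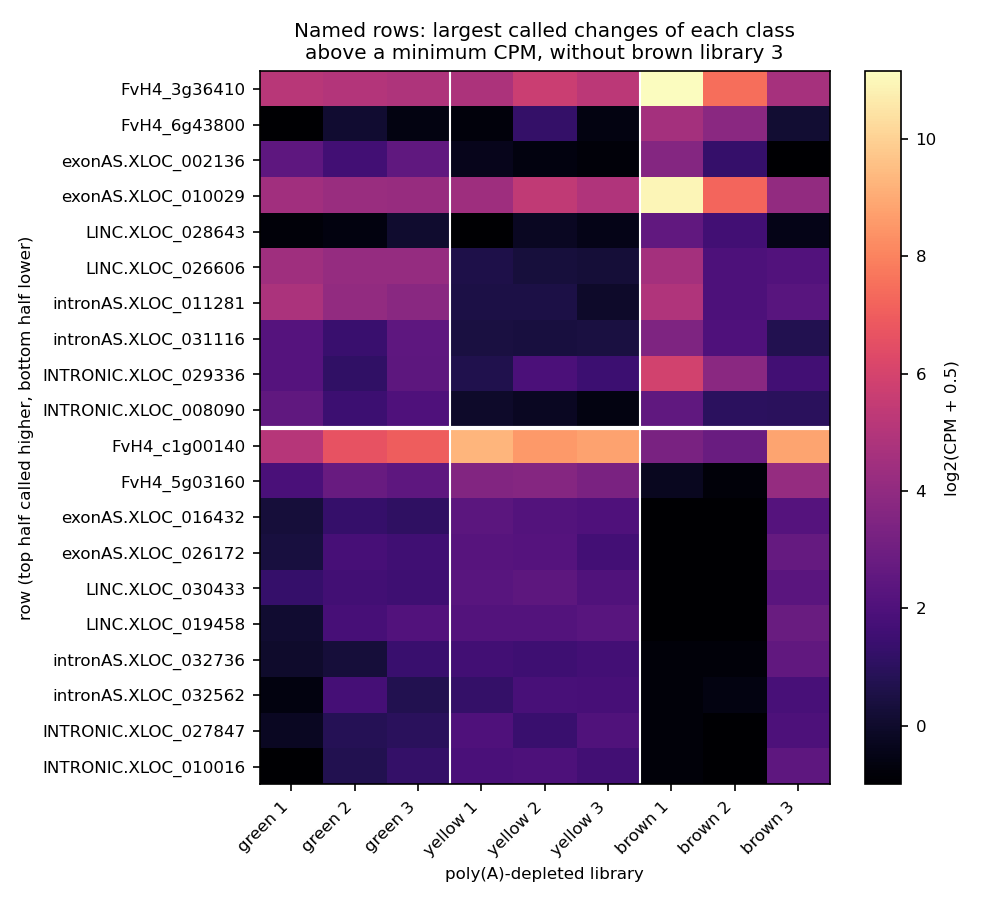
Colour scale of log2(CPM + 0.5) for 20 named rows, the 2 largest called rises and 2 largest called falls of each class above a minimum CPM without brown 3, one column per poly(A)-depleted library and white lines between stages. In the lower block brown 1 and brown 2 are dark while brown 3 resembles the yellow libraries, as in FvH4_c1g00140 with 454 CPM in brown 3 and 9.36 and 6.54 CPM in brown 1 and 2.

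Of these 20 rows, 19 were tested with all 3 brown libraries and none was called there, with edgeR adjusted p from 0.531 to 0.918, and none changed sign. The sizes differed by direction. The 9 tested rises had log2 fold changes of 2.54 to 4.73 with brown 3, against 3.03 to 5.33 without it, while the 10 falls had -1.63 to -0.43 with brown 3. With the intergenic share as covariate, without brown 3, 7 of the 10 rises and 2 of the 10 falls were not called, with edgeR adjusted p from 0.0522 to 0.246. That share comes from the same counts, so the fit is no independent check. FvH4_3g36410 was then at 1.93 (edgeR adjusted p = 0.153) and exonAS.XLOC_010029 at 2.03 (edgeR adjusted p = 0.134). The voom test with quality weights did not call 6 of the 10 falls. In the 9255 rows called higher without brown 3, brown 3 was above all yellow libraries in 841 (9.09%) and below all in 5192 (56.1%). Among all 8008 tested genes at 10 to 100 CPM in the rRNA-depleted libraries, brown 3 was above in 10.3% and below in 49.0%. Among the 7185 at 2 to 10 CPM it was above in 27.5% and below in 27.3%. The share over all tested rows together was not computed. DESeq2 called 52 rows with all libraries, in a fit that used brown 3. Of these, 33 were genes and 16 exonic antisense rows, and 47 had no overlap between brown and yellow. All 52 were also called higher by edgeR without brown 3, in a fit of the same other libraries. Neither count is thus an independent result. The examples that follow were chosen after their values were seen. FvH4_6g09030 had 0.562, 0.419 and 0.466 CPM in yellow and 6.35, 3.53 and 1.40 CPM in brown, with a DESeq2 log2 fold change of 3.02 and adjusted p of 0.00859. FvH4_3g04200 had 3.37, 3.07 and 1.47 CPM in yellow and 43.3, 11.9 and 6.33 CPM in brown, with 3.0 and a DESeq2 adjusted p of 0.0223. In both genes brown 3 was above every yellow library and below the other brown libraries. The row exonAS.XLOC_032923 (chromosome 7, 22284129 to 22286392) had 1.5, 0.488 and 0.698 CPM in yellow and 28.8, 12.5 and 2.52 CPM in brown, with 4.08 and a DESeq2 adjusted p of 0.00644.

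The rows in which brown 3 differed most from the other brown libraries are a description, with no test. Among intergenic rows of at least 10 CPM, LINC.XLOC_025793 (chromosome 6, 33035385 to 33037002) had 43.9 CPM in brown 3, 3.78 and 1.89 CPM in brown 1 and 2, and 12.1, 7.19 and 11.3 CPM in yellow. LINC.XLOC_005044 (chromosome 2, 19834126 to 19838050) had 19.3 CPM in brown 3, 2.32 and 1.89 CPM in brown 1 and 2, and 11.4 to 14.0 CPM in yellow. At the other end, LINC.XLOC_010907 (chromosome 3, 4545939 to 4547039) had 5.55 CPM in brown 3 against 176 and 55.4 CPM in brown 1 and 2. Its yellow libraries held 2.53, 24.4 and 14.0 CPM and its green libraries 0.370, 0.359 and 0.843 CPM, so brown 3 was within the yellow range. LINC.XLOC_031476 (chromosome 7, 4922299 to 4923695) had 25.7 CPM in brown 3, below the yellow libraries at 34.3 to 89.5 CPM, and 598 and 297 CPM in brown 1 and 2. Among genes, FvH4_c1g00600 had 450 CPM in brown 3 against 12.1 and 7.83 CPM, and FvH4_6g37330 had 22.9 CPM against 1766 and 592 CPM. The row exonAS.XLOC_028576 held nearly the counts of FvH4_6g37330, with 24.3 CPM in brown 3 against 1762 and 590 CPM. In exonic antisense rows, exonAS.XLOC_017279 (chromosome 4, 17416022 to 17418650) had 16.8 CPM in brown 3, 1.12 and 0.258 CPM in brown 1 and 2, and 16.0 to 16.7 CPM in yellow.

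Genes that differed between green and brown fruit in the rRNA-depleted libraries were read in the poly(A)-depleted comparison, which shares no library with that choice. Of 601 genes higher in brown than in green there by at least 4-fold (edgeR adjusted p under 0.05), 595 were tested in the poly(A)-depleted comparison without brown 3. There 400 were higher and 3 lower, or 67.2% higher against 19.0% of all rows, and the median log2 fold change was 1.57. The genes at 10 to 100 CPM in the rRNA-depleted libraries, the level at which the mean of this list lay in brown, were higher in 54.1% of cases, so level moves with this share and its part was not tested. Their mean log2(CPM + 0.5) was 3.79, 4.31 and 3.83 in yellow and 5.96, 5.04 and 3.75 in brown. All yellow libraries were below brown 1 and brown 2, and brown 3 was just below the yellow libraries. Of 2166 genes lower in brown than in green, 2136 were tested, with 20 higher and 636 lower, and a median of -0.54. The lower share was 29.8%, against 14.4% of all rows. By rRNA-depleted level, 36.6% of genes under 1 CPM were lower, 13.3% between 1 and 2 CPM and 9.24% between 2 and 10 CPM. The part of level in this share was not tested either. Their mean was 3.12, 2.59 and 2.80 in yellow and 2.24, 2.18 and 3.04 in brown. Brown 3 was within the yellow range, and the other brown libraries below it. In the rRNA-depleted libraries themselves these lists did not separate yellow from brown. The higher list averaged 3.65, 6.01 and 4.59 in yellow and 5.66, 5.63 and 4.77 in brown, and the lower list 2.65, 1.15 and 1.85 in yellow and 1.06, 1.16 and 1.17 in brown. Yellow 2 was above every brown library in the former and among them in the latter.

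The same stages were compared in rRNA-depleted libraries, which shared no library with the poly(A)-depleted comparison. The labels do not say whether the same fruit was used. There, edgeR called no row between brown and yellow (0% of 49283; 2726 higher and 3772 lower at an unadjusted p under 0.05). The rows lower in brown 1 and 2 had a median log2 fold change of -0.67 in the rRNA-depleted libraries, and 76.5% of the 6470 tested there were lower, against 47.1% of all rows. The rRNA-depleted yellow libraries spread widely in these rows, with medians of 0.28, -0.44 and 0.13 from their own mean, and the brown libraries lay at -0.40, -0.21 and -0.23. Yellow 2 was thus below all 3 brown libraries, and the groups overlapped. Lower genes gave a median of -0.79 against -0.03 for all genes, and lower exonic antisense rows -0.90 against -0.11. Lower intergenic rows gave -0.28 against 0.58 for their class, so that 63.6% were lower where 24.4% of the class was. Rows higher in brown 1 and 2 had a median of -0.06, and 43.1% were higher, against 52.9% of all rows.

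The intergenic class as a whole had its medians on opposite sides of 0 in the 2 kinds of library, -0.24 in poly(A)-depleted RNA without brown 3 and 0.58 in rRNA-depleted RNA. Its share of the rRNA-depleted counts was 1.78%, 1.49% and 2.67% in yellow and 2.09%, 2.40% and 5.02% in brown. The third brown library was the highest of the 6 in this kind of RNA too.

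Whether the brown minus yellow change differed between the kinds of library was tested as an interaction. With all 18 libraries edgeR called no row (0% of 52101, with 5201 at an unadjusted p under 0.05), and DESeq2 called 11. Without poly(A)-depleted brown 3 it called 3221 of 53124 rows (6.06%), of which 3171 had the more positive change in poly(A)-depleted RNA. They included 1880 genes, 1253 exonic antisense and 27 intergenic rows, and 50 rows had the more negative change. With a replicate block the count was 1539, and without yellow 2, yellow 3 or brown 1 it was 0. One gene is given from the rows with the smallest adjusted p at a mean of at least 10 CPM. In poly(A)-depleted RNA, FvH4_5g09130 had 4.87, 3.0 and 4.27 CPM in yellow and 34.2, 13.0 and 5.38 CPM in brown. In rRNA-depleted RNA it had 18.9, 26.0 and 16.7 CPM in yellow and 21.8, 23.5 and 11.1 CPM in brown. The groups did not overlap in the former kind and overlapped in the latter, and the difference of the log2 changes was 2.84 (edgeR adjusted p = 0.0395).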

How the data were processed

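The authors deposited raw counts per gene or lncRNA row in one table of 18 libraries, per the file headers, and exon positions of the assembled transcripts. STAR 2.5.4b, TopHat2 2.1.2 and Trim Galore 0.4.2 appear, without their roles, per the submitters' processing notes. No source used here gives the counting program, strand setting or genome build. None of the 28588 gene identifiers matched the 24946 rows of the reference table, so genes are unnamed and no sequence is shown.

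Counts were tested with edgeR 4.0.16 in R 4.3.3 (TMM factors, filterByExpr, quasi-likelihood F test, Benjamini-Hochberg over all rows) on 9 poly(A)-depleted libraries in 3 stage groups, and on 8 without brown 3. The interaction used 18 and 17 libraries. Standard errors (SE) are the absolute log2 fold change divided by the square root of F. CPM are scaled by the TMM factors of the 9 libraries, or of the rRNA-depleted libraries, and log2 values have 0.5 CPM added. DESeq2 1.42.0 and limma 3.58.1 (voom with quality weights) were alternatives. The edgeR fits of brown against yellow were also run on simulated counts with the same spread in every library. Those counts held no library like brown 3, so the run checks the code and not the calls made here. Shares were compared by exact permutation. Replicates were pools of plants, per the labels' protocols. Totals of 9488099 to 20433666 counts per yellow or brown poly(A)-depleted library set the precision.

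Same-numbered yellow and brown libraries deviated together (r = 0.392, 0.153 and 0.422 across rows). Same-numbered libraries had r of -0.0190, 0.118 and -0.110 between green and yellow, and 0.203, -0.109 and 0.0919 between green and brown. Green 1 and brown 2, of unlike number, had 0.400. Whether a number marks a shared batch was not tested. The main fits and the share tests have no block, and a replicate block was an alternative. Shares were read in pairs by number for the yellow and brown libraries alone, and the labels do not say what a number shares.

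In each class the 2 largest rises and 2 largest falls were named, with no overlap and at least 10 CPM for genes or 2 CPM for lncRNAs in the higher group, and places were filled from the fit without brown 3. In genes, intergenic and exonic antisense rows the 2 largest and 2 smallest ratios of brown 3 to the other brown libraries, at 10 CPM or more, were taken for description. For the interaction, 2 genes and 2 lncRNAs with the smallest p were taken. Members and lists were chosen with earlier results of these data known, and the grouping of rows by rRNA-depleted level after the data were seen.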

Additional observations from a re-analysis of the deposited data

Results flagged for a closer look

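The change from yellow to brown differed between poly(A)-depleted and rRNA-depleted RNA in 3221 rows without brown library 3, by edgeR's interaction test at an adjusted p under 0.05. The 4 rows with the smallest p all had the more positive change in poly(A)-depleted RNA, and each had an edgeR adjusted p of 0.0395. In FvH4_5g09130 the log2 changes differed by 2.84, with a change of 2.57 where poly(A) was depleted and of -0.12 where rRNA was. In FvH4_5g10360 they differed by 2.29, from changes of 0.47 and -1.68. In exonAS.XLOC_026660, on chromosome 6 at 4896598 to 4897150, they differed by 3.66, from 3.38 and -0.16. In exonAS.XLOC_011702, on chromosome 3 at 14775370 to 14775806, they differed by 3.58, from 2.80 and -0.63. With brown 3 the differences were 2.29, 1.92, 3.02 and 2.95, with an edgeR adjusted p of 0.461 each. The edgeR adjusted p was 0.0925, 0.132 and 0.385 without yellow 2, yellow 3 and brown 1, while the differences were 2.68, 2.85 and 2.20 in FvH4_5g09130, 2.11, 2.25 and 2.31 in FvH4_5g10360, 3.63, 3.52 and 2.61 in exonAS.XLOC_026660, and 3.75, 3.34 and 3.16 in exonAS.XLOC_011702. In brown library 3 these rows held 5.38, 5.38, 1.51 and 2.58 CPM, against 34.2, 11.5, 41.4 and 29.7 CPM in brown 1.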

How the results depend on the processing

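With all 3 brown libraries the count of called rows was 0 under every alternative to edgeR's main fit, apart from DESeq2 (33 genes and 19 lncRNAs higher), voom with quality weights (4876 genes higher and 4024 lower, 2295 lncRNAs higher and 4927 lower) and the fit without brown 3. Leaving out 1 library at a time gave 0 to 5995 genes higher, 0 to 3192 lower, 0 to 3260 lncRNAs higher and 0 to 3819 lower, the upper value always without brown 3. Without brown 3, library size only gave 2142 genes higher and 6101 lower, with 1243 lncRNAs higher and 7406 lower. Voom with quality weights gave 2636 and 344 genes and 1763 and 220 lncRNAs. The intergenic share as a covariate, itself taken from the same counts, gave 1112 and 1139 genes and 521 and 1055 lncRNAs. An adjusted p under 0.01 gave 3537 and 1881 genes and 2102 and 2108 lncRNAs. With yellow and brown libraries only, 3231 genes and 1895 lncRNAs were higher. Leaving out a further library gave 1454 to 7076 genes higher, 2036 to 3588 lower, 805 to 3938 lncRNAs higher and 2279 to 4254 lower, the lowest always without brown 1. A replicate block gave 5532 genes higher and 2922 lower, with 3083 lncRNAs higher and 3542 lower, and changed no call of the 20 named rows.

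The interaction count rose from 0 to 3221 without brown 3, with DESeq2 giving 11 with all libraries. Without brown 3 it was 6207 with DESeq2, 1539 with the replicate block, and 0 with library size only, with no filter on low counts or at an adjusted p under 0.01, and 0 to 6634 when 1 further library was left out. Of the 20 named rows, 11 were still called with the intergenic share as covariate and 14 with voom quality weights, and none was reversed. The cause of these changes was not tested. Rows with few counts limit what the falls can show, since the named falls end at 0 to 3 counts over brown 1 and 2 in 8 of 10 rows.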
